A study of Drosophila melanogaster with 8 samples.

Results

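Drosophila S2 cells without a knockdown or a mutant protein were compared across the 2 experiments of the series. On one side stood 3 libraries of S2 lines stably transfected with wild-type Beaf. On the other stood 1 library of S2 cells labelled as the control of a CTCF knockdown. These 4 libraries, of 8 in all, were taken by their labels and by the matching wild-type and control columns of the deposited tables. The wild-type lines carried a vector with Beaf and a neomycin resistance gene and came from colonies kept about 10 days under G418. The treatment of the control cells is not given by its own label, and the description of depletion with double-stranded RNA concerns the knockdown. All cells were grown in Schneider's medium with 10% serum. The labels do not say that the wild-type libraries came from separate cultures, so their spread may be technical.

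S2 cells derive from late embryos and have features of macrophage-like hemocytes, the blood cells that engulf debris, secrete clotting proteins and lay down basement membrane. They are male cells, in which the roX noncoding RNAs and the MSL proteins raise transcription of the X chromosome. BEAF-32 and CTCF are insulator proteins that bind DNA near promoters and at domain borders. Most messenger RNAs carry a poly-A tail, whereas ribosomal RNA, 7SL RNA, spliceosomal and nucleolar RNAs and the mRNAs of replication-dependent histones normally do not.

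The libraries differed in make-up before any gene was compared. Wild-type libraries 1 and 2 held 1720616 and 1528041 gene reads and the control 10963742. Library 3 held 1595612 in deposited values, from which reads were not recovered. In CPM (reads scaled to a common gene total), 3 reads correspond to 1.74 and 1.96 in wild-type libraries 1 and 2 and to 0.274 in the control. A deposited value of 3 corresponds to 1.88 CPM in library 3. Reads outside annotated features made up 94.0%, 91.7% and 91.3% of the wild-type libraries and 8.05% of the control. The labels describe 2 library preparations, from 1 µg and from 200 ng of RNA, the second without poly-A selection, and do not say which library had which. Group, treatment, preparation and deposited table therefore cannot be told apart in any result below. Levels were set side by side as CPM over gene rows, and the 4 columns come from tables that were scaled separately. Of 15438 genes, 6330 (41.0%) reached 10 CPM in the wild-type mean or in the control. Over these genes the control exceeded the wild-type mean by a median of 0.61 on the log2(CPM + 2) scale, or 1.52-fold, with an interquartile range of 0.20 to 1.00. Differences below are on that scale unless stated otherwise, and lists are read against that median.

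The control ranked genes less like the wild-type libraries than these ranked each other. Across the 6330 genes, Spearman's correlation was 0.968 between wild-type libraries 1 and 2, 0.967 between 1 and 3, and 0.982 between 2 and 3. Against the control it was 0.798, 0.831 and 0.832. Over protein-coding genes other than histones and mitochondrial genes these last values were 0.841, 0.874 and 0.876, which is closer to the wild-type pairs. Genes are not independent replicates, and these correlations describe the libraries only. Wild-type libraries 2 and 3 had 0% of genes at least 4-fold apart, library 1 differed that much from them in 1.01% and 1.11%, and the control from the wild-type libraries in 10.6%, 8.09% and 7.47%. For most coding genes the levels were alike: 4804 of 5754 (83.5%) lay within 2-fold of the median difference.

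A gene was called outside the wild-type range where the control lay at least 4-fold above the highest or below the lowest wild-type library. This applied to 179 genes above (2.83% of those tested) and 230 below (3.63%), 409 in all (6.46%). Without a fold minimum, 4828 genes (76.3%) lay above all wild-type libraries and 949 (15.0%) below all of them, which leaves 553 (8.74%) within their range. Limma-trend, which takes the spread from the wild-type libraries and assumes that the lone control varies like them, called 551 of 6953 genes higher in the control (7.92%) and 1192 lower (17.1%) at a Benjamini-Hochberg adjusted p of 0.05. All 230 genes below the range also passed limma-trend, and 104 of the 179 above it did. Counts that limma-trend gives for the lists below are read against its shares over all genes. The balance of directions depended on the scaling: genes above the range were 43.8% of calls with CPM, 26.9% with TMM factors, 25.0% with DESeq2 size factors and 24.2% with totals of protein-coding genes. In the plot of control against wild-type levels, coding genes follow the median line while stable noncoding RNAs and histones lie along the floor of the control.

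**Figure D1:**
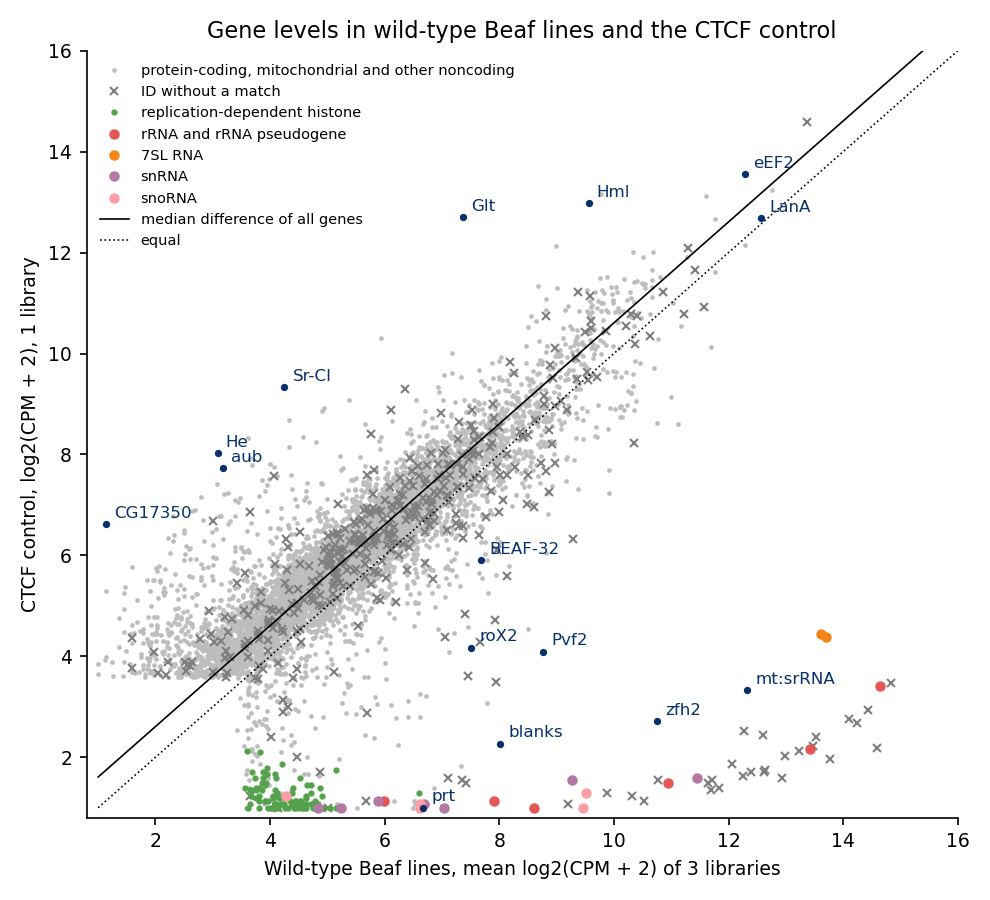
Level of each gene with at least 10 CPM in the CTCF control (y axis, log2(CPM + 2), 1 library) against the mean of the 3 wild-type Beaf libraries (x axis, same scale), with points coloured by gene class and the median difference of 0.61 drawn as a solid line. Most genes follow the line, with Hml, Glt, He and Sr-CI far above it and zfh2, blanks and prt far below it.

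Most stable noncoding RNAs that passed the filter were near absent in the control. The exception among those of their list, lncRNA:Hsromega, a nuclear RNA of the heat-shock response, stood at 174, 221 and 217 CPM in the wild-type libraries and 74.6 CPM in the control. RNaseP:RNA and RNaseMRP:RNA, also in that list, were at 0 in every library. Ribosomal RNA genes and pseudogenes took 4.20%, 3.99% and 3.74% of gene values in wild-type libraries 1, 2 and 3 and 0.00125% in the control. 7SL RNA, the scaffold of the signal recognition particle, took 2.63%, 2.40% and 2.77% against 0.00388%. The control lay below every wild-type library in both classes, and all 6 ribosomal entries and both 7SL genes past the filter were at least 4-fold below the range. Spliceosomal and related small nuclear RNAs took 0.341%, 0.383% and 0.419% of wild-type values against 0.000246% in the control, with 7 of 7 below the range. Small nucleolar RNAs took 0.0990%, 0.160% and 0.288% against 0.000383%, with 5 of 5 below. The small nuclear and nucleolar RNAs, and at least most ribosomal entries, passed the filter only through the wild-type mean, which therefore had to be high. Wild-type library 3 held the most of the small nucleolar RNAs and library 1 the least. Of 257 small nucleolar RNA genes, 9, 10 and 9 were above 0 in wild-type libraries 1, 2 and 3 and 8 in the control. Most were thus absent on both sides, and 0 of 287 transfer RNA genes passed the filter.

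Single RNAs of these classes followed the same order. 7SLRNA:CR32864 stood at 12340, 11474 and 14054 CPM in the wild-type libraries and at 19.8 CPM in the control. snRNA:7SKa, an RNA that restrains the elongation factor P-TEFb, stood at 2755, 2766 and 2889 CPM against 1.00 CPM. U3 snoRNA from snoRNA:U3:54Aa, which guides processing of pre-ribosomal RNA, stood at 406, 671 and 1287 CPM against 0 CPM. All of these were called below the range, so their groups could not overlap, and for 7SK the wild-type libraries lay close together. Spliceosomal snRNA:U2:34ABa stood at 419, 647 and 845 CPM against 0.912 CPM, and snRNA:U1:21D at 87.2, 151 and 162 CPM against 0 CPM. Reads of near-identical copies, such as those of U1, U2 and ribosomal RNA, may have been split or dropped by the authors' counting, so the classes are firmer than single copies.

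Replication-dependent histone mRNAs, which end in a stem-loop, were also low in the control. The histone cluster genes took 0.192%, 0.184% and 0.200% of wild-type gene values and 0.00457% of the control's. Of 97 past the filter, 97 lay below all wild-type libraries and 89 at least 4-fold below. All 111 copies together summed to 45.7 CPM in the control. Nearly all of the 97 thus passed the filter only through the wild-type mean, which therefore had to be high. His1:CG33849, a linker histone copy, stood at 28.5, 28.1 and 27.6 CPM against 0.365 CPM, and His2B:CG33868 at 102, 75.9 and 110 CPM against 0.456 CPM. By contrast, His3.3B, a replacement histone gene, stood at 516, 459 and 427 CPM in the wild-type libraries and 553 CPM in the control. Of the 4 replacement histone genes, 0 lay 4-fold outside the range, where 6.46% of all genes did. His2Av, another of them, stood at 182, 166 and 202 CPM against 190 CPM, and limma-trend, on TMM factors, called it lower (adjusted p of 0.0312). Of the 4, the control lay below all wild-type libraries in 0 with CPM, 2 with TMM factors and 3 with DESeq2 size factors or protein-coding totals. The 5 genes of histone mRNA processing past the filter lay above all wild-type libraries with a median difference of 0.87, 0.26 above that of all genes.

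The mitochondrial genome split between its ribosomal RNAs. Its small ribosomal RNA, mt:srRNA, stood at 4372, 7041 and 4381 CPM in the wild-type libraries and at 8.03 CPM in the control. Its large ribosomal RNA, mt:lrRNA, stood at 4942, 8323 and 8172 CPM against 9699 CPM. The control lay far below the wild-type range for the first. For mt:lrRNA it lay above the range in CPM, but the difference of 0.48 was 0.13 below the median of all genes. Of the 12 mitochondrial genes past the filter, 11 lay above all wild-type libraries in CPM (76.3% of all genes did), 8 with TMM factors and 7 with DESeq2 size factors or protein-coding totals. Among them was mt:CoI, a cytochrome oxidase subunit, at 2883, 3894 and 3719 CPM against 6514 CPM. The whole mitochondrial share was 1.66%, 2.51% and 2.16% against 2.78%.

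**Figure D2:**
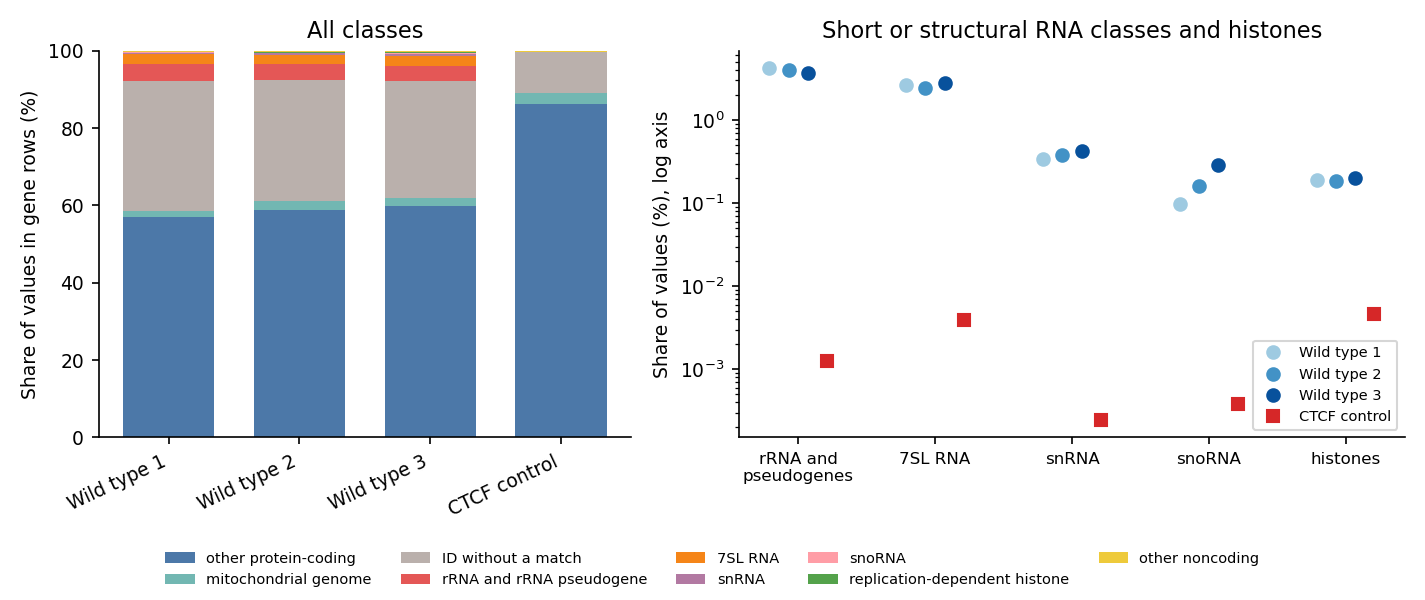
Share of gene values by class in the 3 wild-type libraries and the control, as stacked bars for all classes (left, percent) and as points on a log axis for the short or structural RNA classes and the histones (right, percent). Protein-coding genes fill 56.9% to 59.8% of the wild-type bars and 86.3% of the control's, and the control lies far below every wild-type library in each class of the right panel.

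Gene IDs that matched no annotation used here took 33.7%, 31.3% and 30.2% of wild-type values and 10.5% of the control's. Of 409 such IDs past the filter, 45 lay at least 4-fold below the range and 6 above. The most abundant entry of the control, FBgn0000556, was one of them, at 10669, 10451 and 10588 CPM in the wild-type libraries and 24764 CPM in the control. These IDs are given no name here. With totals of protein-coding genes only, the median difference of all genes was 0.06.

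Hemocyte genes were the list that stood furthest above the median among lists with at least 5 members past the filter. Of 25 hemocyte markers, 12 lay at least 4-fold above the wild-type range and 0 below it (2.83% and 3.63% of all genes), and the median difference was 2.29, which is 1.69 above that of all genes. With TMM factors, DESeq2 size factors or protein-coding totals, 6 stayed 4-fold above. Of the 12, at least He, NimB4 and NimB5 had a wild-type mean under 10 CPM (9.32, 6.63 and 3.84 CPM). These passed the filter only through the control, which therefore had to be high. Limma-trend called 4 of the 25 higher (Tep4, eater, drpr and Pxn) and 7 lower, and without wild-type library 1 it called 16 higher and 7 lower. The fit without library 1 takes its spread from libraries 2 and 3 alone, which lay close together, so its count is not firmer support. Summed over the list, levels were 11532, 16325 and 16812 CPM in the wild-type libraries and 43763 CPM in the control. In bulk RNA, fewer cells of a type and less RNA per cell cannot be told apart.

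The clotting and matrix genes of hemocytes led in level. Hml (hemolectin, a clotting protein) stood at 216, 1334 and 1468 CPM in the wild-type libraries, in order, and at 8051 CPM in the control. Glt (glutactin, a basement membrane protein) stood at 8.14, 640 and 691 CPM against 6680 CPM. Col4a1, a chain of collagen IV, stood at 209, 1734 and 1816 CPM against 9108 CPM. For each, library 1 was lowest by far, libraries 2 and 3 lay close together, and the control was highest without overlap. The partner chain vkg stood at 146, 910 and 955 CPM against 4483 CPM, and Pxn, a peroxidase of the matrix, at 199, 559 and 605 CPM against 2587 CPM. Limma's adjusted p was 0.0918 for Hml, 0.196 for Glt, 0.133 for Col4a1 and 0.0439 for Pxn with all libraries. Without wild-type library 1 the difference on limma's log2 scale was 1.94 for Hml, 2.74 for Glt and 1.77 for Col4a1. Leaving out the library that was low in these genes removes most of their spread, since libraries 2 and 3 lay close together. With scaling other than CPM, Hml, Col4a1, vkg and Pxn lay above the range by less than 4-fold.

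Surface receptors of hemocytes were nearly absent from wild-type library 1. Sr-CI, a scavenger receptor that binds microbes, stood at 1.16, 39.9 and 49.5 CPM in the wild-type libraries and 645 CPM in the control. He (hemese, a hemocyte surface glycoprotein) stood at 0.581, 10.5 and 16.9 CPM against 260 CPM. NimC1, a phagocytosis receptor, stood at 0, 24.9 and 23.2 CPM against 138 CPM. In library 1 these values correspond to 2, 1 and 0 reads, and the control exceeded libraries 2 and 3 in each. Other engulfment receptors were present throughout: eater at 80.2, 143 and 154 CPM against 601 CPM, crq (croquemort) at 184, 193 and 162 CPM against 383 CPM, and drpr (draper) at 17.4, 30.8 and 40.1 CPM against 169 CPM. The blood cell transcription factor srp (serpent) stood at 330, 357 and 385 CPM against 554 CPM, near the median difference, and limma's adjusted p was 0.853. The label of hemocyte-like S2 cells thus had its defining markers in wild-type libraries 2 and 3 and the control, while in library 1 Hml, Pxn, srp, Col4a1 and crq were detected and He, Sr-CI and NimC1 were at or below the floor of 3 reads.

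A smaller group of hemocyte genes ran the other way. Tep2, a thioester protein that tags microbes, stood at 357, 349 and 366 CPM in the wild-type libraries and 144 CPM in the control. Tig (tiggrin, an integrin ligand) stood at 2360.2, 2306 and 2252 CPM against 1492 CPM, and Fer1HCH, a ferritin subunit, at 791, 694 and 721 CPM against 464 CPM. The control was below all wild-type libraries for each, and limma-trend called each lower, with adjusted p of 7.00e-05, 0.000456 and 0.000815. Unlike Hml and Glt, these genes varied little among the wild-type libraries. Laminin genes hardly moved in CPM: LanA stood at 5896, 6119.6 and 6193 CPM against 6592 CPM, and LanB1 at 3539, 3313 and 3525 CPM against 3127 CPM. Limma-trend, which centres on TMM factors, called both lower (adjusted p of 0.0187 and 0.00393). In the list of basement membrane and matrix genes, 4 of 15 lay 4-fold above (Col4a1, vkg, Pxn and Glt) and 0 below, against 2.83% and 3.63% of all genes, and only Glt did so under the other scalings. The median was 0.49 below that of all genes, and limma-trend called 2 of the 15 higher and 7 lower.

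**Figure D3:**
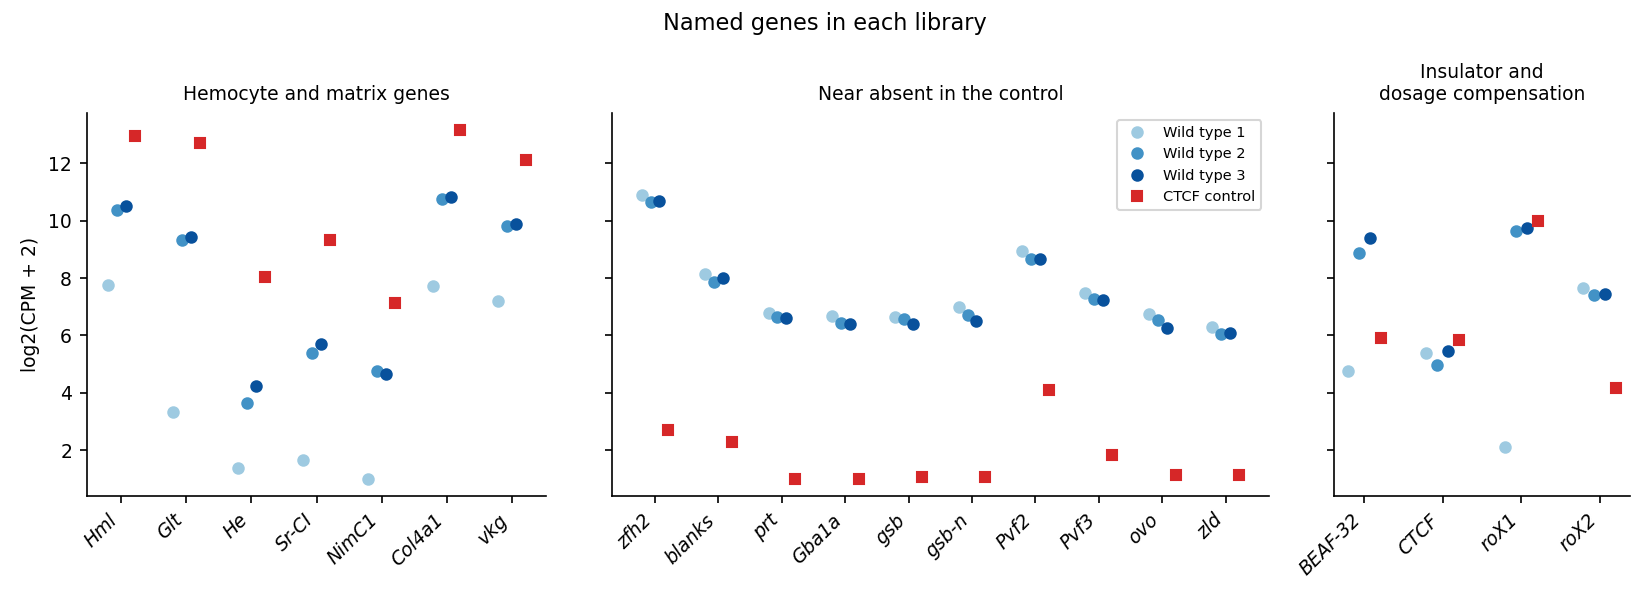
Levels of named genes in each library as log2(CPM + 2) (y axis), with blue circles for wild-type libraries 1, 2 and 3 and red squares for the CTCF control. Hemocyte genes step up from library 1 to libraries 2 and 3 and to the control, the genes of the middle panel are tight among wild-type libraries and far lower in the control, and roX1 and BEAF-32 are low in library 1.

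Wild-type library 1 stood apart from libraries 2 and 3 in a small group of genes. There were 55 genes (0.869% of those tested) with library 1 at least 4-fold below both others and 1 with it at least 4-fold above (0.0158%). The 1 gene above was the unmatched ID FBgn0085764, at 38869.8 CPM against 6302 and 3563 CPM. Of the 55, the control lay above both other wild-type libraries in 49, at least 4-fold above in 29, and at or below library 1 in 0. Of these 55 genes, 18 passed the filter only through the control, which therefore had to be high. In the other 37 the control lay above both other libraries in 31, against 76.3% of all genes above every wild-type library, and at least 4-fold above in 20, against 2.83%. The 29 make up 52.7% of the 55 and 16.2% of the 179 genes above the range. Beside Hml, Glt and the collagens they held Argk1 (arginine kinase, which buffers ATP), at 2.91, 75.9 and 74.6 CPM against 486 CPM, and Ama (amalgam, a cell adhesion protein), at 0, 31.4 and 27.6 CPM against 241 CPM. Sox100B, a Sox-family transcription factor, stood at 2.32, 134 and 122 CPM against 541 CPM. Without library 1, 186 genes lay above the range and 238 below, and limma-trend called 1022 genes higher and 1447 lower, 2469 in all against 1743 with it.

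**Figure D4:**
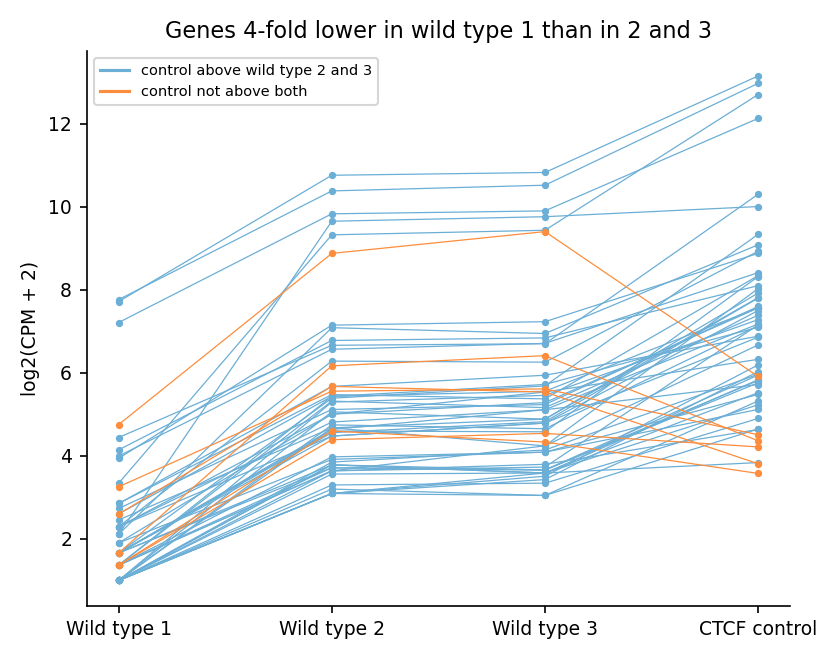
The 55 genes at least 4-fold lower in wild-type library 1 than in libraries 2 and 3, 1 line per gene across the 4 libraries, as log2(CPM + 2). In 49 genes (blue) the control is above both libraries 2 and 3, and in 6 (orange) it is not.

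As lists, insulator and dosage compensation genes lay near the median of all genes (0.06 above it and 0.14 below it), while BEAF-32 and the roX RNAs departed from it. BEAF-32, whose RNA comes from the resident and the introduced gene together, stood at 25.0, 469 and 676 CPM in the wild-type libraries and 58.3 CPM in the control. The control lay between library 1 and the others, and limma's adjusted p was 0.354. Without library 1 the difference on limma's log2 scale was -3.85, lower in the control. CTCF stood at 40.1, 29.4 and 42.0 CPM against 55.4 CPM, a difference of 0.57 that sits at the median of all genes (adjusted p of 0.973 with limma). Of 17 insulator genes past the filter, 0 lay 4-fold outside the range in either direction, where 6.46% of all genes did. The median difference was 0.67, or 0.06 from that of all genes. Their partners followed it, such as Cp190, a cofactor of several insulator proteins, at 186, 192 and 205 CPM against 310 CPM.

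The roX RNAs, which guide the MSL complex on the male X chromosome, moved apart. roX1 stood at 2.32, 804 and 867 CPM in the wild-type libraries, in order, and 1027 CPM in the control. roX2 stood at 202, 168 and 170 CPM against 16.1 CPM. For roX1 the control lay just above libraries 2 and 3 and library 1 was close to its floor, whereas for roX2 the wild-type libraries lay together and the control was below all of them. Limma's adjusted p was 0.612 for roX1 and 3.08e-05 for roX2. Without library 1, roX1 was lower in the control by 0.29 on limma's log2 scale, although its CPM was above that of libraries 2 and 3. The protein partners did not follow either RNA: msl-2, the male-specific subunit, stood at 56.4, 58.2 and 49.5 CPM against 58.6 CPM, and mof, the acetyltransferase, at 50.6, 68.1 and 50.1 CPM against 67.9 CPM. Coding genes of the X had a median difference of 0.56, against 0.59 on 2L, 0.77 on 2R, 0.51 on 3L, 0.67 on 3R and 0.31 on chromosome 4. The share at least 4-fold above the range was 1.24% on the X and 1.67% on chromosome 4. It was 2.95% to 3.65% on arms 2L, 2R, 3L and 3R.

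Among coding genes without histones, 71 lay at least 4-fold below the range (1.23% of 5754) and 169 above (2.94%). Among the 71 the greatest difference on the log2(CPM + 2) scale was that of zfh2, which encodes a transcription factor with zinc fingers and homeodomains. It stood at 1910, 1605 and 1650 CPM in the wild-type libraries (1722 ± 165 CPM, SD, n = 3) and at 4.56 CPM in the control, a ratio of 378 and a limma adjusted p of 2.83e-07. blanks, a double-stranded RNA binding protein, stood at 278, 234 and 257 CPM against 2.83 CPM (adjusted p of 1.89e-06 with limma). Both genes were close to off in the control and high in each wild-type library. That genes below the range do not overlap the control follows from the rule that calls them.

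Several developmental transcription factors were at the floor of the control. In all, 18 coding genes had at most 3 reads there and at least 10 CPM in each wild-type library, among them all genes named next except Antp. gsb-n and gsb, neighbouring segment polarity factors with paired domains, stood at 124, 104 and 87.7 CPM and at 98.2, 92.3 and 82.1 CPM in the wild-type libraries, with 1 read each in the control. ovo, a germline and epidermal zinc finger factor, stood at 105, 90.3 and 74.6 CPM, and zld (zelda, the activator of early zygotic genes) at 77.3, 64.8 and 66.4 CPM, with 2 reads each in the control. By the rule that picked them, none of these could overlap the control, whose floor was lower than that of the wild-type libraries. Antp, a homeotic gene with a wild-type library under 10 CPM, stood at 12.2, 7.20 and 11.3 CPM against 0 CPM, and Dr, a homeobox gene of the nervous system and muscle, at 16.9, 13.7 and 11.3 CPM against 0 CPM.

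Further genes at the floor of the control were prt and Gba1a. prt (portabella, a vesicular transporter) stood at 107, 98.8 and 95.3 CPM against 0 CPM, at least 367-fold lower in the control by its floor of 3 reads. Gba1a, a glucocerebrosidase, stood at 99.4, 85.1 and 81.5 CPM against 0 CPM, at least 324-fold lower. Both lie in a run of 4 genes of arm 3R, CG10252, prt, CG31468 and Gba1a, that were all at 0 CPM in the control, with no other coding gene past the filter between them. In that order of coding genes past the filter, 13 of the 71 (18.3%) stood next to another of the 71, in 5 runs. The runs also held the pairs gsb-n and gsb, Pvf2 and Pvf3, and Tie and CG11353. In the same count, 42 of the 169 higher genes (24.9%) stood in 17 runs, the longest of them 8 genes of arm 2L from Ance to NimC1 that includes He and NimB1 to NimB5. Of these at least He, NimB4 and NimB5 passed the filter only through the control, which therefore had to be high. How many runs genes called at random would form was not tested. The collagen genes vkg and Col4a1 are also neighbours in that order.

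Other coding genes below the range, named after their values were seen, encode secreted ligands and a surface protein. Pvf2 and Pvf3 encode ligands of the PDGF/VEGF receptor that guides hemocytes. Pvf2 stood at 491, 406 and 406 CPM in the wild-type libraries and 15.0 CPM in the control, and Pvf3 at 175, 152 and 149 CPM against 1.55 CPM. Limma's adjusted p was 6.72e-06 and 4.41e-06. Ser (Serrate, a Notch ligand) stood at 118, 96.9 and 95.9 CPM against 7.30 CPM, and NetB, a netrin that guides axons, at 158, 175 and 186 CPM against 22.0 CPM. dlp, a glypican that carries Wnt and Hedgehog proteins, stood at 108, 88.3 and 94.6 CPM against 7.57 CPM. In each of these genes the wild-type libraries lay within a narrow range. That it did not reach the control follows from the rule that picked them.

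Further coding genes below the range were likewise named after their values were seen. kst (karst, the heavy beta spectrin of the apical membrane) stood at 2446, 2125 and 2121 CPM against 385 CPM, and sty (sprouty, an inhibitor of receptor tyrosine kinases) at 1751, 1719 and 1695 CPM against 393 CPM. baz (bazooka, the Par-3 polarity protein) stood at 259, 232 and 244 CPM against 47.0 CPM and was the 1 epithelial gene of 15 outside the range. brp (bruchpilot, a protein of synaptic active zones) stood at 53.5, 47.8 and 38.2 CPM against 5.93 CPM. Arc1, a capsid-forming relative of retrotransposon Gag proteins, stood at 1043, 925 and 939 CPM against 149 CPM. All were picked as lying at least 4-fold below every wild-type library, so their lack of overlap follows from that rule. In the cytoskeleton list as a whole, 0 of 20 genes lay 4-fold outside the range, where 6.46% of all genes did. The median was 0.11 above that of all genes.

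Metabolic and stress genes were lower in part. Ldh, lactate dehydrogenase, stood at 33.1, 30.8 and 41.4 CPM in the wild-type libraries and 1.92 CPM in the control, and Pfk, phosphofructokinase, at 91.8, 96.2 and 80.2 CPM against 22.2 CPM. Of 12 glycolysis genes past the filter, limma-trend called 7 lower and 0 higher, against 17.1% and 7.92% of all genes, and the median lay 0.68 below that of all genes. Oxidative phosphorylation sat at the median instead (27 genes, 0.05 below it). MtnA, a metallothionein that binds copper and zinc, stood at 46.5, 47.8 and 50.8 CPM against 3.47 CPM. Ecdysone response genes had a median 0.95 below that of all genes, and limma-trend called 5 of 9 lower and 0 higher. Among them the receptor EcR stood at 127, 152 and 160 CPM against 59.1 CPM and Eip75B, a nuclear receptor, at 192, 240 and 218 CPM against 144 CPM. Ldh belongs to both lists.

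The coding genes furthest above the range included factors known from the germline of the ovary and testis. aub (aubergine, a PIWI protein that cuts transposon RNA) stood at 3.49, 7.20 and 12.5 CPM in the wild-type libraries and 211 CPM in the control (adjusted p of 0.00391 with limma). bam (bag of marbles, which starts germ cell differentiation) stood at 0.581, 9.82 and 6.89 CPM against 118 CPM (adjusted p of 0.0550). With wild-type means of 7.74 and 5.76 CPM, aub and bam passed the filter only through the control, which therefore had to be high. Further piRNA factors were also higher. del (deadlock, of dual-strand piRNA clusters) stood at 1.16, 21.6 and 26.3 CPM against 221 CPM. nxf2, of nuclear silencing, stood at 19.2, 15.7 and 18.8 CPM against 95.6 CPM, and mael (maelstrom) at 5.81, 10.5 and 8.77 CPM against 52.3 CPM. Like aub and bam, mael passed the filter only through the control. Other members of this machinery differed: piwi stood at 3.49, 1.96 and 2.51 CPM against 6.20 CPM, and AGO3 at 85.4, 210 and 221 CPM against 140 CPM. In the RNA interference list aub was the 1 gene of 18 above the range and blanks the 1 below it, while AGO2, which carries small interfering RNAs, stood at 427, 406 and 421 CPM against 931 CPM.

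Other coding genes were close to absent in the wild-type libraries. CG17350 had 0, 1 and 0 reads there and 96.6 CPM in the control, and CG9338 had 0, 0 and 1 reads and 37.4 CPM. CG14931 had 0 reads in each wild-type library and 10.5 CPM in the control, at least 16.9-fold higher by a floor of 3 reads over the pooled wild-type libraries. In all, 9 coding genes past the filter had at most 3 reads over the wild-type libraries together, and these passed it only through the control. Among the 12 genes furthest above the range were also Srg3, at 17.4, 17.02 and 20.1 CPM against 283 CPM, and Mf (myofilin, a protein of muscle thick filaments), at 1.16, 22.3 and 21.9 CPM against 318 CPM. cona, a component of the synaptonemal complex, stood at 0, 5.89 and 5.64 CPM against 108 CPM. CG8501, CG30484, CG34437 and CG10126 stood at 147, 116, 52.4 and 39.5 CPM in the control and below 10 CPM in every wild-type library. These genes too passed the filter only through the control. Limma's adjusted p was 0.000132 for Srg3, 0.0728 for Mf and 0.0732 for cona, and of these 3 only Srg3 had wild-type libraries that lay together.

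Marker lists of other cell types had few members past the filter, and 6.46% of all genes lay outside the range. Of 5 neuronal markers 1 lay below it (brp), and of 15 epithelial markers 1 below it (baz). Of 5 muscle markers 1 lay above it (Mf), and of 5 tracheal and gut markers 0 lay outside it. Of 4 gonadal markers 2 lay above and 1 below, and of 2 fat body markers 1 lay above (Col4a1). Of 5 neuronal markers past the filter, limma-trend called 2 lower and 0 higher, and the median lay 1.16 below that of all genes. Of 15 epithelial markers it called 7 lower and 0 higher, against 17.1% and 7.92% of all genes, with a median 0.50 below. Of 5 muscle markers it called 2 lower and 0 higher, with a median 0.31 below. Mf ran the other way, at 1.16, 22.3 and 21.9 CPM in the wild-type libraries against 318 CPM. Summed levels of 16 neuronal markers were 102, 128 and 126 CPM in the wild-type libraries and 65.9 CPM in the control, and those of 14 muscle markers 1451, 1423 and 1455 CPM against 1240 CPM. Of 12 gonadal markers, 4 passed the filter, with aub and bam above the range and ovo below it, and Vm26Ab and zpg were at 0 in every library. The wild-type means of aub and bam were 7.74 and 5.76 CPM. Both passed the filter only through the control, which therefore had to be high. Of 13 fat body markers, 2 passed the filter, Col4a1 and the lipid transfer protein gene Apoltp (300, 513 and 577 CPM against 2155 CPM), while the storage protein genes Lsp2 and Fbp1 stood below 1 CPM in every library. Epithelial markers summed to 2403, 2325 and 2415 CPM against 2548 CPM.

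Ribosomal protein genes were higher as a group, beyond the shift of all genes. Of 80 past the filter, 79 lay above all wild-type libraries against 76.3% of all genes, and limma-trend called 40 higher and 4 lower. The median difference was 1.03, or 0.42 above that of all genes, and this excess was 0.40 with TMM factors. RpL5 stood at 3288, 2919 and 3115 CPM against 8915 CPM. RpL39, among the shortest, stood at 99.4, 84.4 and 90.2 CPM against 539 CPM, whereas RpL28 stood at 1204, 1045 and 1084 CPM against 743 CPM. RpS5b, a germline-enriched paralog of RpS5a, stood at 3.49, 23.6 and 27.6 CPM against 223 CPM. Of 17 translation factors, 14 lay above all wild-type libraries and 3 below, against 76.3% and 15.0% of all genes. Their median was 0.20 above that of all genes. The elongation factor eEF2 stood at 5149, 4839.5 and 4984 CPM against 12074 CPM. Thor, the inhibitor of cap-dependent initiation, stood at 217, 217 and 203 CPM against 63.7 CPM and eIF5B at 481, 449 and 429 CPM against 149 CPM.

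Heat-shock and immunity genes lay above the median difference of all genes. Of 16 heat-shock genes, 15 lay above all wild-type libraries against 76.3% of all genes, and limma-trend called 4 higher and 1 lower, with a median 0.76 above that of all genes, and 0.52 above it without wild-type library 1. Hsp68 stood at 46.5, 53.01 and 47.6 CPM against 167 CPM (limma adjusted p of 0.00291), and the small chaperone gene Hsp27 at 6.39, 12.4 and 13.2 CPM against 67.1 CPM (adjusted p of 0.0182). The copies of Hsp70 share sequence, and how their reads were assigned is not known. In the Toll and Imd list 18 of 18 genes lay above all wild-type libraries with CPM (76.3% of all genes did), whereas with TMM factors 11 lay above and 5 below. The median was 0.18 above that of all genes, and limma-trend called 5 higher and 0 lower, against 7.92% and 17.1% of all genes. GNBP3, a receptor for fungal glucans, stood at 20.9, 36.0 and 28.2 CPM against 171 CPM, and key (Kenny, the regulatory subunit of the kinase complex of the Imd pathway) at 81.4, 89.0 and 87.7 CPM against 299 CPM. Sting, a sensor of cyclic dinucleotides, stood at 36.0, 60.9 and 50.8 CPM against 389 CPM.

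Several lists of housekeeping machines lay near the median of all genes. The proteasome (30 genes) had a median 0.01 below that of all genes, mitochondrial ribosomal proteins (65 genes) 0.04 above it, DNA replication (23 genes) 0.14 below it and integrins with their linkers (17 genes) 0.06 above it. Mitosis genes lay 0.35 below, with 8 of 26 called lower by limma-trend and 0 higher, against 17.1% and 7.92% of all genes. Among these Klp3A, a kinesin of the spindle, stood at 247, 192 and 205 CPM against 75.2 CPM, and stg (string, the Cdc25 phosphatase that triggers mitosis) at 392, 359 and 365 CPM against 228 CPM. The plot of lists sets these beside the hemocyte, histone and noncoding lists.

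**Figure D5:**
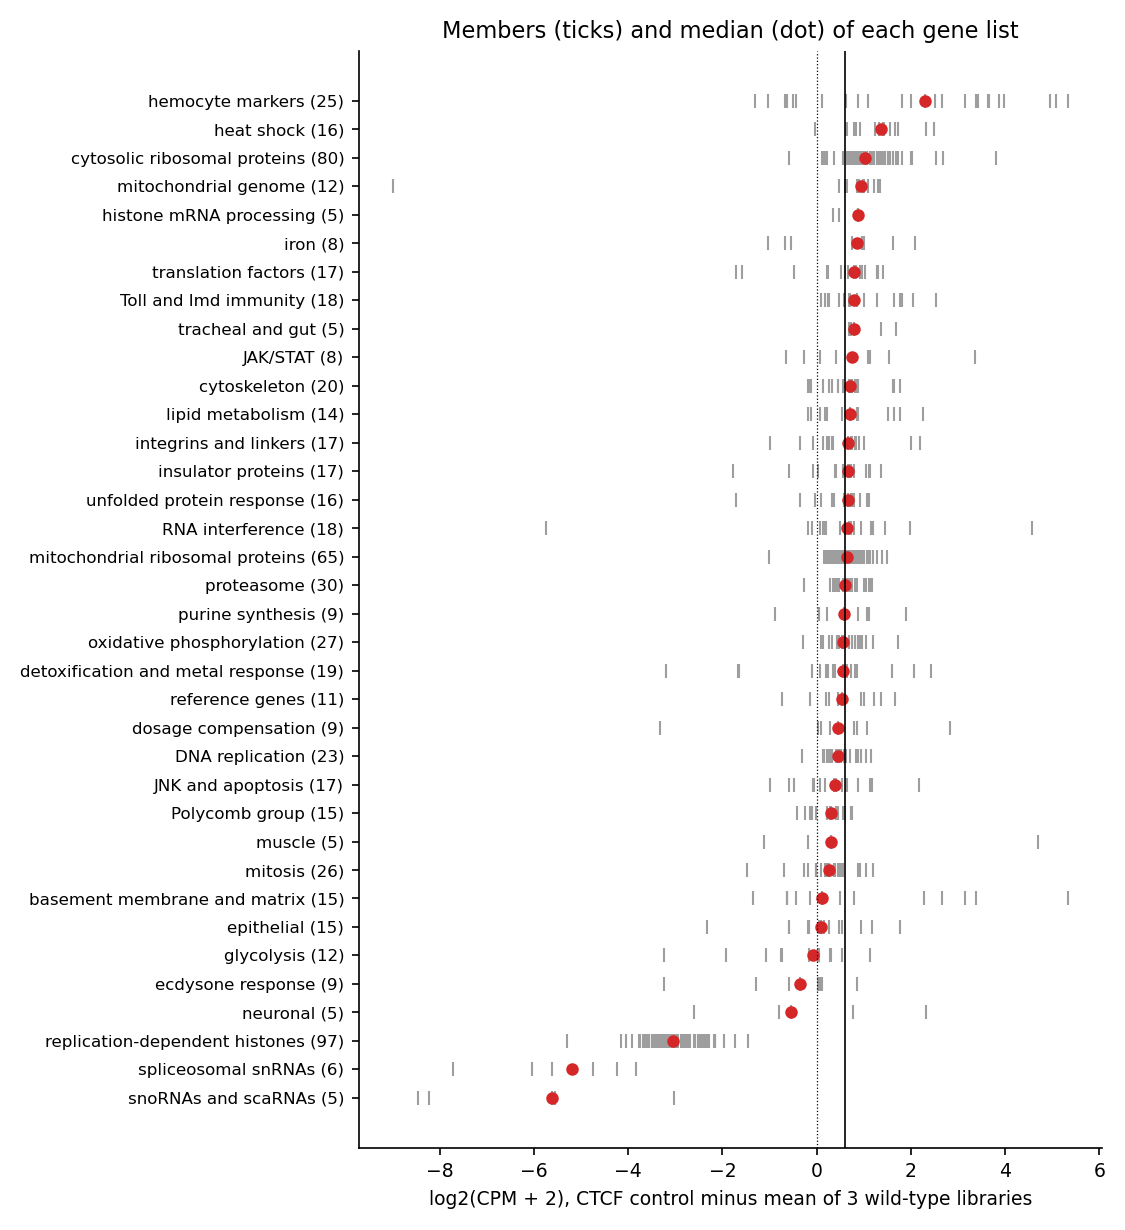
Difference between the CTCF control and the mean of the wild-type libraries on the log2(CPM + 2) scale (x axis) for each gene list with at least 5 members past the filter (rows, number of members in brackets), with ticks for members, red dots for medians, a solid line at the median of all genes (0.61) and a dotted line at 0. Hemocyte markers lie highest by median (2.29), and histones, small nuclear and small nucleolar RNAs lie lowest.

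The difference also varied with gene length. When coding genes were put in 5 equal groups by exonic length, the median difference was 0.80, 0.75, 0.66, 0.60 and 0.27 from the shortest to the longest group. The share of genes at least 4-fold above the range was 3.74% in the shortest group and 1.65% in the longest, and the share below was 0.608% and 2.43%. Across the 5754 genes Spearman's correlation of the difference was -0.29 with length, -0.13 with the number of exons and -0.36 with the wild-type level, as a description, since the wild-type level also enters the difference. The part of length in the results above was not tested.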

How the data were processed

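Of 8 libraries, 4 were analysed here. The submitters' processing notes list CASAVA 1.8, BWA and HTSeq. For genome build, annotation and strandedness, none is stated in the sources used here. The deposited wild-type and control columns hold a signal, which the values show to be read counts times 1 factor per column, rounded, so the authors' counts were recovered by division (factors 1.234, 1.237 and 1.297; 99.99%, 99.99% and 99.8% of values whole, against 81.0%, 80.8% and 77.1% by chance). Wild-type library 3 (137 genes at the value 24, 87 and 79 at the values beside it) was used as deposited, so what is called reads there is that signal. The mutant and knockdown columns hold counts as deposited, and are used only for values given as other observations. The last 5 rows, reads assigned to no gene, were left out. Gene symbols came from FlyBase IDs matched to Ensembl BDGP6.54 and RefSeq tables (14606 of 15438, 94.6%). No coordinates are printed.

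Differences are log2(CPM + 2), with a minimum of 10 CPM in the wild-type mean or the control. Limma-trend 3.58.1 used TMM factors (edgeR 4.0.16), filterByExpr, a prior count of 2 and two-sided Benjamini-Hochberg adjusted p-values (R 4.3.3; pandas 2.3.3 for tables). With 1 control library it rests on the spread of the wild-type libraries. DESeq2 1.42.0, edgeR and limma-voom were alternatives. Genes named are BEAF-32, CTCF, roX1, roX2, Hml and Glt, the 12 furthest above and below the range, up to 6 per list and direction outside the range, the 10 most abundant per group and 2 abundant members of other lists. The members and the 43 lists (662 of 721 entries matched) were chosen with earlier results of these data known. The neighbour runs, the genes at the floor, the genes low in library 1 and the other named genes were chosen after values were seen. Intervals and floors cover counting error only.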

Additional observations from a re-analysis of the deposited data

Results flagged for a closer look

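Reads outside annotated features were a signal that the comparisons of genes did not use, and they were above the level of the control in each wild-type library. They made up 94% of wild-type library 1, 91.7% of library 2 and 91.3% of library 3, against 8.05% of the control. Reads assigned to genes were 5.02%, 4.75% and 4.94% of the wild-type libraries and 70.3% of the control, and reads not aligned 0.790%, 3.32% and 3.55% against 18.4%. What these reads hold was not tested, since the deposited tables give only their number.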

How the results depend on the processing

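No paired analysis was possible because the control is 1 library and the columns carry no replicate numbers. Genes above the wild-type range numbered 179, and 97, 91 and 94 with TMM, DESeq2 size factors and protein-coding totals, all among the 179. The 230 genes below it stayed below under each of these scalings (264, 273 and 295 in all). A minimum of 30 CPM gave 259 genes outside the range, 113 of them below, and a pseudocount of 5 gave 270 and 149. A fold of 2 gave 1418 genes (1049 above, 369 below) and a fold of 8 gave 160 (35 and 125). Leaving out 1 wild-type library gave 424 to 466 genes, 186 to 229 above and 234 to 238 below. Limma-trend called 1743 genes, 3392 with CPM totals, and 922 to 2469 when 1 wild-type library was left out (922 without library 3, with 181 higher). EdgeR called 2938 on recovered reads and 2811 on deposited values, and limma-voom 3373. Lists at least 1 from the median of all genes numbered 5, and 2 with a minimum of 30 CPM. Spearman's correlation of the control with the wild-type mean was 0.82, and 0.76 with a minimum of 30 CPM and 0.90 with no filter. Over the settings run for the range rule, named genes gave the same call in 580 cases, lost it in 32 and reversed in 0. Scalings took Hml, Col4a1, vkg, Pxn, RpL39, GNBP3, Hsp27 and Cyp12a4 under 4-fold, and DESeq2 size factors and protein-coding totals also the JAK/STAT list member et. Antp lost its call without library 1 and without library 3. The minimum of 10 CPM for limma-trend was added after the data had been seen. Depth limits low genes: 3 reads are 1.74 and 1.96 CPM in wild-type libraries 1 and 2.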

Other observations

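Values of the remaining 4 libraries are given for genes that set the control apart, with no test. The libraries of the mutant Beaf lines, numbered by deposited table, and the CTCF knockdown were scaled to CPM in the same way. In mutant libraries 1, 2 and 3, zfh2 was at 81.1, 1108 and 1101 CPM, and in the knockdown at 6.69 CPM. blanks stood at 3.71, 161 and 156 CPM against 3.99 CPM, prt at 6.81, 70.5 and 68.0 CPM against 0.108 CPM, and Pvf2 at 47.7, 289 and 286 CPM against 25.4 CPM. In these genes mutant library 1 lay nearer the knockdown than mutant libraries 2 and 3 did.

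The RNA roX2 was at 33.4, 179 and 190 CPM in the mutant lines and 17.6 CPM in the knockdown, and roX1 at 385, 2274 and 2298 CPM against 1259 CPM. Among hemocyte genes, Hml stood at 3175, 3313 and 3536 CPM against 4977 CPM and He at 6.19, 29.2 and 26.6 CPM against 253 CPM. Glt stood at 512, 1796 and 1659 CPM against 5600 CPM, and aub at 22.9, 27.0 and 25.9 CPM against 203 CPM. The knockdown and the control come from 1 deposited table, and the mutant libraries share tables with the wild-type libraries.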
